A study of Homo sapiens with 3 samples.

Results

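MYC and MYB, both nuclear proto-oncogene transcription factors, and the genes of the MAX network were described on 3 Affymetrix HG-U133 Plus 2 arrays of T47D, an estrogen receptor-positive line derived from human breast cancer. The 10 genes were MYC, MYB, MAX, MXD1, MXD3, MXD4, MXI1, MNT, MLXIP and MGA. They were chosen by family and selected on the measured differences between these same arrays, so every value below is a description and none was tested. A probe set, the group of short probes that reports 1 transcript region, was used where its annotation held exactly 1 gene symbol. This gave 23 probe sets for 9 of the 10 genes, out of 54613 probe sets other than controls and 19775 genes with a probe set of their own. MXD4 had no such probe set, because all 3 of its sets also carry a microRNA gene.

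T47D cells were kept for 4 h in medium with 10% charcoal-stripped, and so hormone-depleted, serum and then treated for 3 h. The vehicle cells received 0.1% ethanol, the estradiol cells the hormone at 1 µM, and the ERα17p cells a peptide copied from a stretch of the estrogen receptor, also at 1 µM. The labels name no solvent for the treated cells. With 1 array in each group, differences between cultures cannot be measured and p-values are not given. SDs are taken across the n probe sets of the same gene, and so cover probe noise and whatever else sets those probe sets apart. T47D is 1 cell line, and no other line was analysed here.

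MYC and MAX are basic helix-loop-helix leucine zipper proteins. As a pair they bind the E-box, a short palindromic DNA site, and raise transcription of genes for growth and cell division. The MXD proteins, MXI1 and MNT compete with MYC for MAX and repress the same kind of site. MLXIP, also called MondoA, binds DNA with the related partner MLX and responds to glucose. MGA pairs with MAX in a Polycomb repressor complex, and MYB belongs to a separate family with its own DNA site. Estrogen is known to induce MYC early, and to raise MYB by relieving a block to elongation within the gene, in breast cancer cells that carry the receptor.

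The deposited values lay around 0 because every probe set is expressed against an unstated baseline. They were taken as log2 values, so that a difference of 1 is 2-fold, and folds assume this base. Levels of different genes, and the markers that define T47D cells as luminal epithelium, could not be compared in absolute terms. The vehicle array differed from the treated arrays as a whole. Its SD over probe sets was 0.434, against 0.158 and 0.166, and its 18S ribosomal RNA control sets were lower by 1.87 on the log2 scale than with estradiol and by 1.76 than with ERα17p, on average over 3 sets. The 3′ less the 5′ control set of ACTB stood at 0.52 with vehicle, −0.29 with estradiol and −0.17 with ERα17p. Between ERα17p and estradiol the 18S sets differed by −0.12. The 24 control sets for poly-A RNA spikes stood at 0.70 ± 0.29 (SD over sets) for estradiol minus vehicle, 0.45 ± 0.29 for ERα17p minus vehicle and −0.24 ± 0.25 for ERα17p minus estradiol, where the lowest was −1.24. The 18 control sets for hybridisation spikes stood at −0.15, −0.17 and −0.02 in the same order. The part of these array differences in any comparison with the vehicle was not tested, whereas ERα17p minus estradiol does not use the vehicle array. The 9 markers of luminal breast epithelium ran from −0.16 to 1.44 for estradiol minus vehicle, from −0.19 to 0.89 for ERα17p minus vehicle and from −0.55 to 0.50 for ERα17p minus estradiol. Of the 11 measured markers of basal, stromal, endothelial and blood cells, the lowest and highest differences were −0.63 and 0.33 for estradiol minus vehicle and −0.44 and 0.40 for ERα17p minus vehicle. For ERα17p minus estradiol they were −0.28 and 0.19, and the part of these markers in the results was not tested.

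Among the members, MYC was higher with estradiol than on either other array, and MYB was lower with ERα17p than on either other array. As genes, MAX, MXD1, MXD3, MXI1, MNT, MLXIP and MGA were each less than 2-fold apart in all 3 comparisons, and MXD4 had no gene value. At least 2-fold higher with estradiol than with vehicle was 1 of 9 genes, MYC, where the share over all genes was 1.57%, and 0 were at least 2-fold lower, against 1.63%. With ERα17p, 0 members were at least 2-fold higher and 0 lower than with vehicle, against 1.9% and 1.87% of all genes. Between ERα17p and estradiol, 2 of 9 members, MYC and MYB, were at least 2-fold lower with the peptide, against 0.086% of all genes, and 0 were higher, against 0.0607%. The choice of members used these contrasts, so the counts are given beside the background and nothing is read from them.

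**Figure D1:**
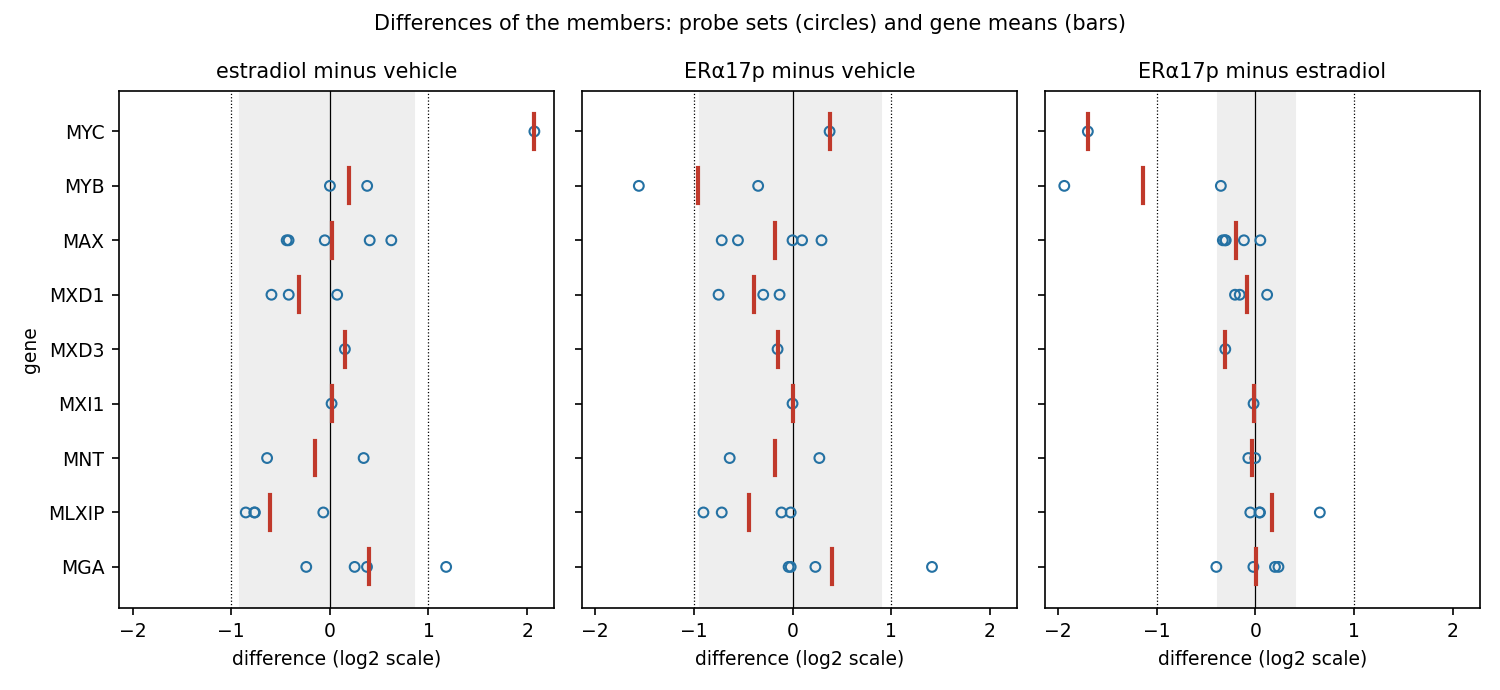
Differences between arrays on the log2 scale for the 9 members with a probe set of their own; circles are probe sets, red bars the gene means, grey bands the central 95% of all genes, and dotted lines mark 2-fold. In ERα17p minus estradiol, MYC at −1.70 and MYB at −1.14 lie outside the band from −0.38 to 0.40, and the other gene means lie inside it.

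By probe set rather than gene, 2 of 23 were at least 2-fold higher with estradiol than with vehicle, where the share over the 41091 probe sets with 1 gene was 3.79%, and 0 were lower, against 2.34%. These were the MYC set and 1 set of MGA. With ERα17p, 1 probe set, of MGA, was at least 2-fold higher than with vehicle (background 3.99%), and 1, of MYB, was lower (background 2.66%). Between ERα17p and estradiol, 0 of 23 were higher (background 0.073%) and 2 were lower (background 0.129%), the MYC set and 1 MYB set. The median difference over the 9 genes was 0.02 for estradiol minus vehicle, −0.18 for ERα17p minus vehicle and −0.08 for ERα17p minus estradiol. Over all genes these medians were −0.004, 0.001 and 0.006.

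MYC was measured by 1 probe set, 202431_s_at. Its deposited value was −1.27 with vehicle, 0.80 with estradiol and −0.90 with ERα17p. The estradiol array was thus the high one, and the vehicle and peptide values lay closer to each other than to the estradiol value. MYC was higher by 2.07 with estradiol than with vehicle, which is 4.21-fold, and was the tenth-highest of all 19775 gene differences in that comparison, with 0.0455% of genes above it. The peptide array was 0.38 above the vehicle, or 1.3-fold, and 13.8% of genes had a larger positive difference. With ERα17p MYC was 1.70 lower than with estradiol, or 3.25-fold, and 0.0202% of genes had a more negative value there.

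The comparison of MYC between the peptide and the vehicle was the least settled. When the 3 arrays were forced to a common distribution, ERα17p minus vehicle became −0.73 and ERα17p minus estradiol −2.71, while estradiol minus vehicle was 1.98. That step narrows the vehicle array, with an SD of 0.434, and widens the treated arrays, with SDs of 0.158 and 0.166. It therefore cannot decide whether MYC was higher with the peptide or the vehicle. The identifier of the MYC set ends in _s_at, which marks probes that can match more than 1 transcript, and MYC has no other set with 1 gene symbol. No second probe set could therefore be used to check its values, and the spread over probe sets is unknown. For genes with more than 1 set, the median SD over their sets was 0.29 for estradiol minus vehicle, 0.28 for ERα17p minus vehicle and 0.16 for ERα17p minus estradiol.

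**Figure D2:**
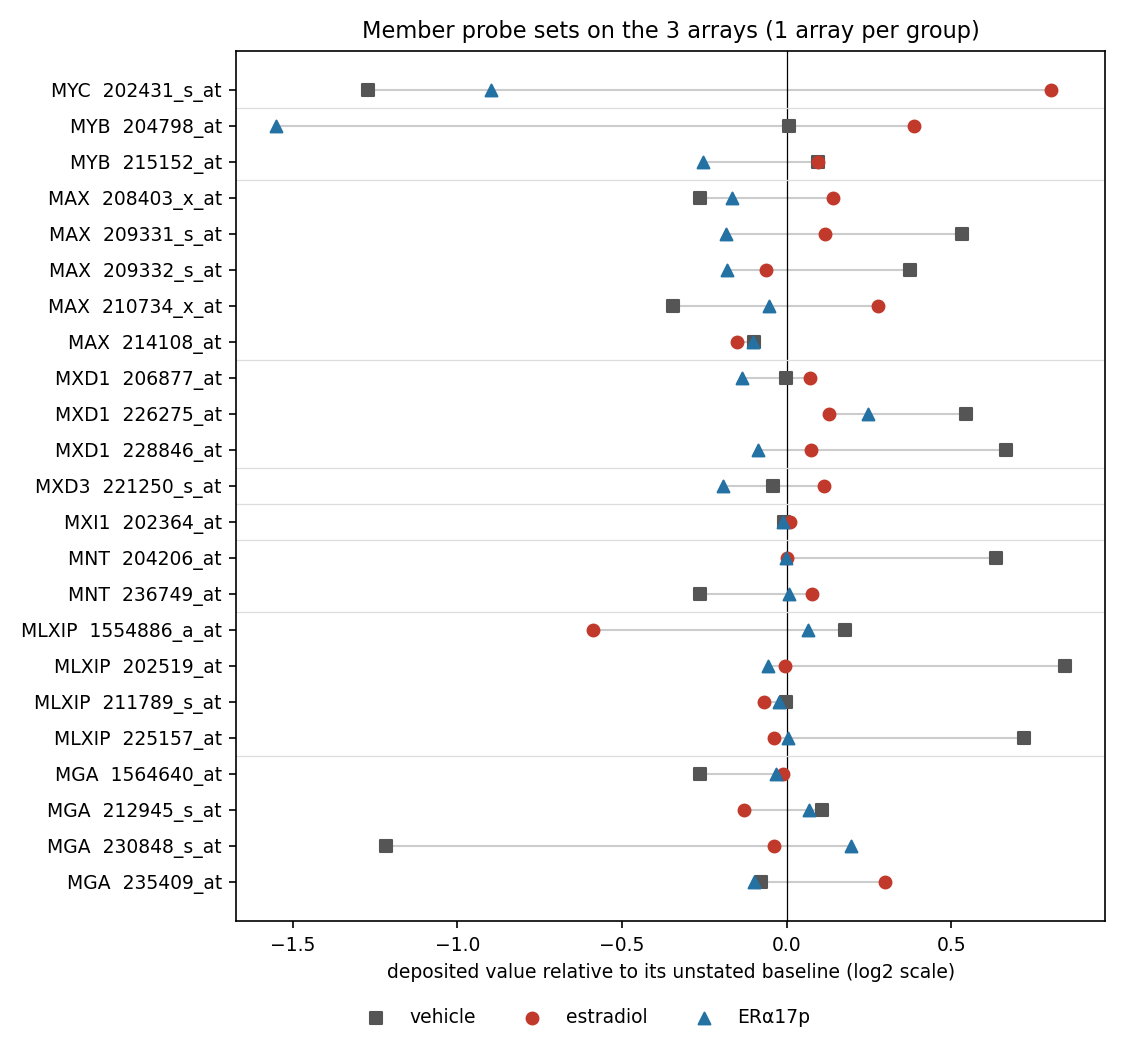
Deposited value of each of the 23 member probe sets on the vehicle (square), estradiol (circle) and ERα17p (triangle) arrays, relative to the baseline of each set, on the log2 scale; each point is 1 array. The MYC set is high only on the estradiol array, at 0.80, MYB set 204798_at is low only on the ERα17p array, at −1.55, and several MLXIP, MNT and MXD1 sets are high on the vehicle array.

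MYB, which keeps progenitor cells dividing and is expressed in receptor-positive breast cancers, was measured by probe sets 204798_at and 215152_at. The first had values of 0.01 on the vehicle array, 0.39 with estradiol and −1.55 with ERα17p. The second had 0.10, 0.10 and −0.25 on the same arrays. Both sets were lowest with the peptide, and they differed in size. For 204798_at, ERα17p minus vehicle was −1.56, or 2.95-fold, and ERα17p minus estradiol −1.94, or 3.83-fold. For 215152_at these differences were −0.35 on both counts, or 1.27-fold.

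As a gene, MYB stood at −0.95 ± 0.86 (SD, n = 2 probe sets) for ERα17p minus vehicle and at −1.14 ± 1.12 for ERα17p minus estradiol. Of all genes, 2.29% had a lower difference in the first comparison and 0.0657% in the second. With the arrays forced to a common distribution, which widens the treated ones, the first became −1.26, past 2-fold, and the second −1.59. For estradiol minus vehicle MYB stood at 0.19 ± 0.27, from 0.38 and 0.001 for its sets, and 26.4% of genes were above it. Estradiol and vehicle thus differed by less than the spread over the MYB sets. Neither set ends in _s_at or _x_at.

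The MYB promoter is shown because MYB, with MYC, differed most between the treated arrays. It is the 250 bases before the RefSeq start of transcription at chr6:135181058-135181307 on the plus strand of GRCh38.p14, written 5′ to 3′. Capitals mark an E2F-type site, TTTGGCG, that begins 61 bases before the start. E2F factors drive genes of the cell cycle.

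MYB: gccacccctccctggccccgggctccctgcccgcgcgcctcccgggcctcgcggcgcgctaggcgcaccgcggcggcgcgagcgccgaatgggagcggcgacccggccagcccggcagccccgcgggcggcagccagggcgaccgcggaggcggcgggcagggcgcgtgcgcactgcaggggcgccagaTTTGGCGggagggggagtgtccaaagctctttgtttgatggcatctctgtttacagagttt

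Windows of 300 bases, 250 before and 50 after a RefSeq start, were matched by symbol for 9 members and numbered 14, since MAX, MXI1 and MGA have several starts. MYC was not matched. Each motif was searched on both strands, and the sites were chosen after the values were known. The E2F-type site was in 2 of 14 member windows, those of MYB and 1 of MGA, and in 1.92% of all 35116 windows. The full estrogen response element, GGTCANNNTGACC, was in 0 of 14 and in 0.057% of all windows. A single arm of that element, GGTCA, which the full element contains, was in 5 of 14 and in 37.4% of all. The MYB-type site TAACNG was in 4 of 14 and in 20.8% of all, and was not found in the MYB window. The GC box GGGCGG, bound by SP1, was in 11 of 14 and in 45% of all. The MYB promoter was 75.6% G and C, where the median over all windows was 58%. Member promoters ran from 55.6% for 1 start of MXI1, the only one below that median, to 78% for MNT. The letters of the GC box are all G or C, and the shares of windows were not adjusted for base content.

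MAX, the shared partner that MYC and the repressors need for DNA binding, was measured by 5 probe sets, and these did not move one way. On 209331_s_at the values were 0.53 on the vehicle array, 0.12 with estradiol and −0.19 with ERα17p. On 210734_x_at they were −0.35, 0.28 and −0.05. The first was thus highest and the second lowest on the vehicle array. For estradiol minus vehicle, the 5 sets ran from −0.44 to 0.62, with 2 above 0 and 3 below, and their mean was 0.02 ± 0.48 (SD, n = 5). For ERα17p minus vehicle they ran from −0.72 to 0.29, with a mean of −0.18 ± 0.44.

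Between the treated arrays the MAX sets lay closer together. ERα17p minus estradiol was −0.20 ± 0.16 (SD, n = 5), with 4 of 5 sets below 0, at −0.31, −0.30, −0.12 and −0.33. The remaining set, 214108_at, stood at 0.05, and it is the only one of the 5 that does not end in _x_at or _s_at. Its values were −0.10, −0.15 and −0.10 for vehicle, estradiol and ERα17p in turn, so that it hardly differed among them.

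The repressors MXD1, MXD3 and MXI1 compete with MYC for MAX and recruit the SIN3 corepressor. MXD1, which rises as cells leave the cycle and differentiate, had 3 probe sets. On 228846_at its values were 0.67 with vehicle, 0.07 with estradiol and −0.09 with ERα17p, and on 226275_at they were 0.55, 0.13 and 0.25. Both sets were highest on the vehicle array. The third, 206877_at, had −0.003, 0.07 and −0.13, with no such excess. As a gene, MXD1 stood at −0.31 ± 0.35 (SD, n = 3) for estradiol minus vehicle, −0.39 ± 0.32 for ERα17p minus vehicle and −0.08 ± 0.18 for ERα17p minus estradiol. The first and the last were smaller than the spread over its sets.

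MXD3, a member of the MXD family found in dividing cells, had 1 probe set, 221250_s_at. Its values were −0.04 on the vehicle array, 0.11 with estradiol and −0.19 with ERα17p. It was highest with estradiol and lowest with the peptide. So were both MYB sets, MXD1 set 206877_at, MXI1 set 202364_at and MGA set 235409_at. ERα17p minus estradiol was −0.31, and 4.55% of all genes were lower. The 2 differences from vehicle were 0.15 and −0.15. MXI1, also called MXD2, had 1 set, 202364_at, with values of −0.009, 0.009 and −0.010. Its 3 differences were 0.02, −0.001 and −0.02, the smallest of any member in the comparisons with the vehicle.

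MNT, a constitutive MAX partner that counters MYC, had 2 probe sets that disagreed in sign against the vehicle. On 204206_at the values were 0.64 with vehicle, 0.001 with estradiol and −0.001 with ERα17p, and on 236749_at they were −0.26, 0.08 and 0.01. The vehicle array was the high one for the first set and the low one for the second. For estradiol minus vehicle these gave −0.64 and 0.34, with a mean of −0.15 ± 0.69 (SD, n = 2), and for ERα17p minus vehicle −0.18 ± 0.64. ERα17p minus estradiol was −0.04 ± 0.05, with values of −0.002 and −0.07.

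MNT and MXD4 were the members whose promoter windows held the E-box CACGTG, the site that this network binds, so their sequences are shown. It was in 2 of 14 member windows and in 7.26% of all windows. The MNT stretch is chr17:2401061-2401310 and the MXD4 stretch chr4:2262110-2262359, both on the minus strand of GRCh38.p14 from RefSeq, the 250 bases before the start written 5′ to 3′. Capitals mark the E-box, which begins 193 bases before the start in MNT and 238 bases before it in MXD4. A match shows the letters only, and binding was not measured here.

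MNT: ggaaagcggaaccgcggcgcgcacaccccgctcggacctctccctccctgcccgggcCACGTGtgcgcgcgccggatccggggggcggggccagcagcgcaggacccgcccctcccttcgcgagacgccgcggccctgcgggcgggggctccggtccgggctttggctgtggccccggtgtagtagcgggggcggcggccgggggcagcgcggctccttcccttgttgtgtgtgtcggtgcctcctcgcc
MXD4: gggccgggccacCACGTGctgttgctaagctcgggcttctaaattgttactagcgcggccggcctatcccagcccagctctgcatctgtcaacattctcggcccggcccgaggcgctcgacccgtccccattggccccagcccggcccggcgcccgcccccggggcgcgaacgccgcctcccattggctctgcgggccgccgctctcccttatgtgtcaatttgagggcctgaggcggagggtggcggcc

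MLXIP, which turns on TXNIP and other genes when glucose is taken up, had 4 probe sets, and all 4 were lower in both treated arrays than in the vehicle array. On 202519_at the values were 0.85 with vehicle, −0.01 with estradiol and −0.06 with ERα17p. On 225157_at they were 0.72, −0.04 and 0.003. In both the vehicle array was high and the treated arrays lay together. On 1554886_a_at they were 0.18, −0.59 and 0.07, so that estradiol alone was low, and on 211789_s_at all lay between −0.07 and −0.003. The gene stood at −0.61 ± 0.37 (SD, n = 4) for estradiol minus vehicle, or 1.53-fold, and at −0.44 ± 0.44 for ERα17p minus vehicle. ERα17p minus estradiol was 0.17 ± 0.32, with 0.65 on 1554886_a_at and between −0.05 and 0.05 on the others.

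MGA, the very large MAX partner of a Polycomb complex, had 4 probe sets, of which 1 differed strongly. On 230848_s_at the values were −1.22 with vehicle, −0.04 with estradiol and 0.20 with ERα17p. The vehicle array was low, and the differences were 1.18 and 1.41, or 2.26-fold and 2.66-fold. For the other 3 sets, estradiol minus vehicle was 0.25, −0.24 and 0.38, and ERα17p minus vehicle was 0.23, −0.04 and −0.02. The gene stood at 0.39 ± 0.59 (SD, n = 4) and 0.40 ± 0.69, both smaller than the spread over sets. ERα17p minus estradiol was 0.004 ± 0.29.

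Going by the size of 1.5-fold, 1 of 9 members was higher with estradiol than with vehicle, MYC, against 6.48% of all genes, and 1 was lower, MLXIP, against 8.42%. With ERα17p, 0 were higher than with vehicle, against 6.88%, and 1 was lower, MYB, against 8.76%. Between ERα17p and estradiol, MYC and MYB were at least 1.5-fold lower, against 0.607% of all genes, and 0 were higher, against 0.521%. Signs were mixed for estradiol minus vehicle, with 6 of 9 genes above 0, against 9769 of all 19775 genes. For ERα17p minus vehicle and for ERα17p minus estradiol, 7 of 9 were below 0, against 9858 and 9569 of all 19775.

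Other genes were compared with MYC and MYB by their pattern over the 3 arrays, each gene centred on its own mean. The measure was the root mean square distance over the arrays, and the 5 closest genes were taken for each. Closest to MYC were KCNK5, a potassium channel, at a distance of 0.13, KCTD6, an adaptor of a ubiquitin ligase, at 0.163, the adrenergic receptor gene ADRA2A at 0.174, RBM24, which encodes an RNA-binding protein, at 0.176, and the kinase gene SGK1 at 0.267. Like MYC, all 5 were highest with estradiol, which follows from their choice by closeness to MYC. Their differences for estradiol minus vehicle ran from 1.47 for SGK1 to 2.39 for KCNK5. For ERα17p minus estradiol they ran from −1.95 for ADRA2A to −1.30 for KCTD6. Against the vehicle, ERα17p stood at −0.05 for ADRA2A and −0.15 for SGK1, and above 0 for the other 3.

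Closest to the mean of the MYB sets were CITED1, a transcriptional coactivator, at 0.038, the phosphoesterase gene MPPED2 at 0.045, RAPGEFL1 at 0.093, ASB13 at 0.112 and HEY2, a repressor induced by Notch, at 0.114. All 5 were lowest with ERα17p, which again follows from how they were chosen. ERα17p minus vehicle ran from −1.18 for HEY2 to −0.93 for MPPED2. ERα17p minus estradiol ran from −1.40 for HEY2 to −0.91 for ASB13. Estradiol minus vehicle stayed between −0.05 for ASB13 and 0.30 for MPPED2. With 3 arrays and 19775 genes, some genes lie close to any pattern, and nothing is read from the names.

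**Figure D3:**
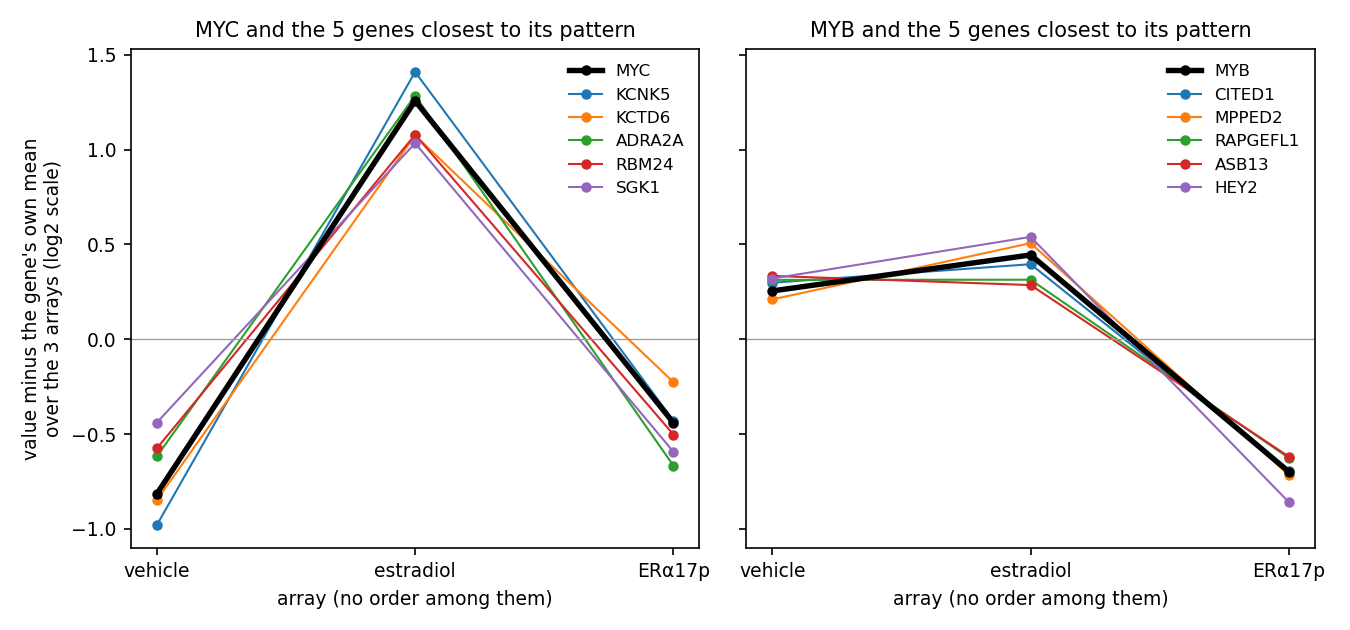
Values of MYC (left) and MYB (right) with the 5 genes closest to each, as the value on each array minus the gene's own mean over the 3 arrays, on the log2 scale; each point is 1 array and lines only link the points of a gene. The MYC group peaks on the estradiol array and the MYB group is lowest on the ERα17p array, which follows from the choice by closeness.

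Partners and known target genes were taken from 10 lists, with 103 of 114 entries measured. Of the genes named below, MLXIPL, SRM, FBL, CDKN1A, NDRG1, CEBPA, KAT2A, ACTL6A and PAF1 each had 1 probe set. PIM2, PCGF6, E2F6, MYBL2, FOXM1, KIT and ARRDC4 also had 1 each, so none of these genes has an SD. Other list genes given without an SD had more than 1 set. The MAX network genes outside the members were MYCN, MYCL, MLX and MLXIPL. MLXIPL, the liver and gut relative of MLXIP also called ChREBP, stood at −0.91 for estradiol minus vehicle and −1.04 for ERα17p minus vehicle. The other 3 lay between −0.12 for MYCL and 0.05 for MLX with estradiol, and between −0.04 for MLX and 0.09 for MYCL with ERα17p. Of these 4 genes, 1 was at least 1.5-fold lower in each comparison with the vehicle, against 8.42% of all genes with estradiol and 8.76% with ERα17p, and 0 were higher, against 6.48% and 6.88%. ERα17p minus estradiol was 0.06 for MYCN, 0.21 for MYCL, −0.09 for MLX and −0.13 for MLXIPL.

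Genes known to be induced by MYC, mostly for nucleolar, nucleotide and polyamine synthesis, went both ways. Over 25 measured genes the median was 0.07 for estradiol minus vehicle, with a range from −0.99 to 0.68, and −0.08 for ERα17p minus vehicle, from −1.11 to 0.55. For ERα17p minus estradiol it was −0.09, from −0.50 to 0.30. Without sets ending in _x_at or _s_at the first median became −0.0673. At least 1.5-fold higher with estradiol was 1 of 25, the transferrin receptor gene TFRC at 0.68 ± 1.10 (SD, n = 5 probe sets), against 6.48% of all genes, and 2 were lower, against 8.42%. These were SRM, for spermidine synthase, at −0.99 and SHMT2, a serine-using mitochondrial enzyme, at −0.85 ± 0.20 (SD, n = 3). With ERα17p, 3 of 25 were at least 1.5-fold lower, against 8.76% of all genes, and 0 higher, against 6.88%. The 3 were SRM at −1.11, SHMT2 at −0.89 and FBL, a nucleolar methyltransferase, at −0.62. FBL stood at −0.53 with estradiol, just short of 1.5-fold, and at −0.09 for ERα17p minus estradiol. For ERα17p minus estradiol 6 of 25 lay above 0, against 10199 of all 19775 genes. At least 1.5-fold lower or higher there were 0, against 0.607% and 0.521% of all genes. The purine enzyme gene PPAT stood at 0.57 ± 0.93 (SD, n = 3) with estradiol, 0.20 ± 0.74 with ERα17p and −0.37 ± 0.21 for ERα17p minus estradiol.

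Genes known to be repressed by MYC went both ways. Their median over 9 measured genes was −0.03 with estradiol and 0.06 with ERα17p, relative to vehicle. CDKN1A, which encodes the cell cycle inhibitor p21, stood at −1.11 and −1.27, NDRG1 at −1.26 and −1.23, and the differentiation factor CEBPA at −1.14 and −0.83. THBS1, for the matrix protein thrombospondin, was higher, at 1.29 ± 0.89 (SD, n = 7) and 0.86 ± 0.74. With estradiol 4 of 9 were at least 1.5-fold lower and 1 higher, against 8.42% and 6.48% of all genes. With ERα17p 3 were lower and 2 higher, against 8.76% and 6.88%. Between ERα17p and estradiol the median over the 9 genes was 0.03, with a range from −0.44, for THBS1, to 0.55. CDKN1A differed by −0.16 and CEBPA by 0.31 in that comparison.

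Proteins that help MYC act on chromatin had 13 measured genes. Their median was −0.36 for estradiol minus vehicle and −0.37 for ERα17p minus vehicle. In both, 2 of 13 lay above 0, against 9769 and 9915 of all 19775 genes. The acetyltransferase gene KAT5 stood at −1.04 ± 0.04 (SD, n = 3) and −0.98 ± 0.07, and KAT2A at −0.54 and −0.74. ACTL6A, an actin-related subunit, differed between agents, at −0.09 with estradiol and 0.49 with ERα17p. At least 1.5-fold lower were 2 of 13 in each comparison with the vehicle, against 8.42% of all genes with estradiol and 8.76% with ERα17p. They were KAT5 and PAF1 with estradiol, and KAT5 and KAT2A with ERα17p. PAF1 stood at −0.59 with estradiol and −0.54 with ERα17p. With the arrays forced to a common distribution, the median for estradiol minus vehicle became −0.22. Between ERα17p and estradiol the median was 0.01.

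Regulators of MYC protein stability had medians of 0.08 and 0.10 over 14 measured genes for estradiol and ERα17p minus vehicle, and the first became −0.0735 without sets ending in _x_at or _s_at. CIP2A, which shields MYC from a phosphatase, was higher by 1.21 ± 0.43 (SD, n = 2) with estradiol and 1.19 ± 0.25 with ERα17p, and the mitotic kinase AURKA by 0.64 ± 0.11 (SD, n = 3) and 0.58 ± 0.17. PIM2, a kinase that stabilises MYC, stood at −0.89 and −0.90, and the ubiquitin ligase gene STUB1 at −0.59 and −0.70. The deubiquitinase gene USP36 stood at −0.33 ± 0.75 (SD, n = 5) and −0.69 ± 0.71. For ERα17p minus estradiol the median was −0.02, and 0 of 14 were 1.5-fold lower or higher, against 0.607% and 0.521% of all genes.

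Corepressor genes of the SIN3 complex had 0 of 8 members at least 1.5-fold lower or higher in any comparison, where the shares of all genes were those given above, with medians of −0.07, 0.01 and 0.05 in the order of the comparisons. Their widest differences from vehicle were 0.44 ± 0.61 (SD, n = 4) for SAP30 and −0.40 ± 0.69 (SD, n = 2) for SUDS3, both with estradiol. The Polycomb partners of MGA had medians of 0.01, −0.07 and −0.09 over 9 genes. Without sets ending in _x_at or _s_at, 8 genes had a value and these medians became −0.33, −0.40 and 0.04. PCGF6, the subunit that defines this complex, was higher by 0.82 with estradiol and 0.70 with ERα17p, whereas L3MBTL2 stood at −0.70 in both and E2F6 at −0.47 and −0.68. RING1, a ubiquitin ligase subunit, stood at −0.68 and −0.61, and TFDP1 at 0.63 ± 0.65 (SD, n = 3) and 0.54 ± 0.52.

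MYB has the relatives MYBL1 and MYBL2, and MYBL2 works with the MuvB complex and FOXM1 on mitotic genes. Of these 8 genes 3 were at least 1.5-fold lower in each comparison with the vehicle, against 8.42% of all genes with estradiol and 8.76% with ERα17p. At least 1.5-fold higher were 0 of 8 in each, against 6.48% and 6.88%. MYBL2 stood at −0.76 with estradiol and −0.70 with ERα17p, FOXM1 at −0.75 and −0.72, and LIN37 at −0.94 ± 0.93 (SD, n = 2) and −0.85 ± 0.87. MYBL2 differed by 0.06 and FOXM1 by 0.03 between ERα17p and estradiol. Genes known to be induced by MYB had a median of −0.09 with estradiol and −0.04 with ERα17p over 11 genes. For ERα17p minus estradiol it was 0.07, and 8 of 11 lay above 0, against 10199 of all 19775 genes. Without sets ending in _x_at or _s_at these medians became −0.29, −0.22 and 0.0328. The cyclin gene CCNB1 was higher by 0.76 ± 0.03 (SD, n = 2) and 0.87 ± 0.003, and KIT by 0.19 and 0.32. The chemokine receptor gene CXCR4 stood at −0.61 ± 0.90 (SD, n = 3) and −0.54 ± 1.01. CCNE1 stood at −0.38 ± 0.11 (SD, n = 2) and −0.22 ± 0.41, and HSPA5 at −0.46 ± 0.51 (SD, n = 2) and −0.39 ± 0.49. The MLXIP targets TXNIP and ARRDC4 stood at −0.23 ± 0.61 (SD, n = 3) and −0.07 with estradiol, and at −0.09 ± 0.57 and −0.18 with ERα17p.

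**Figure D4:**
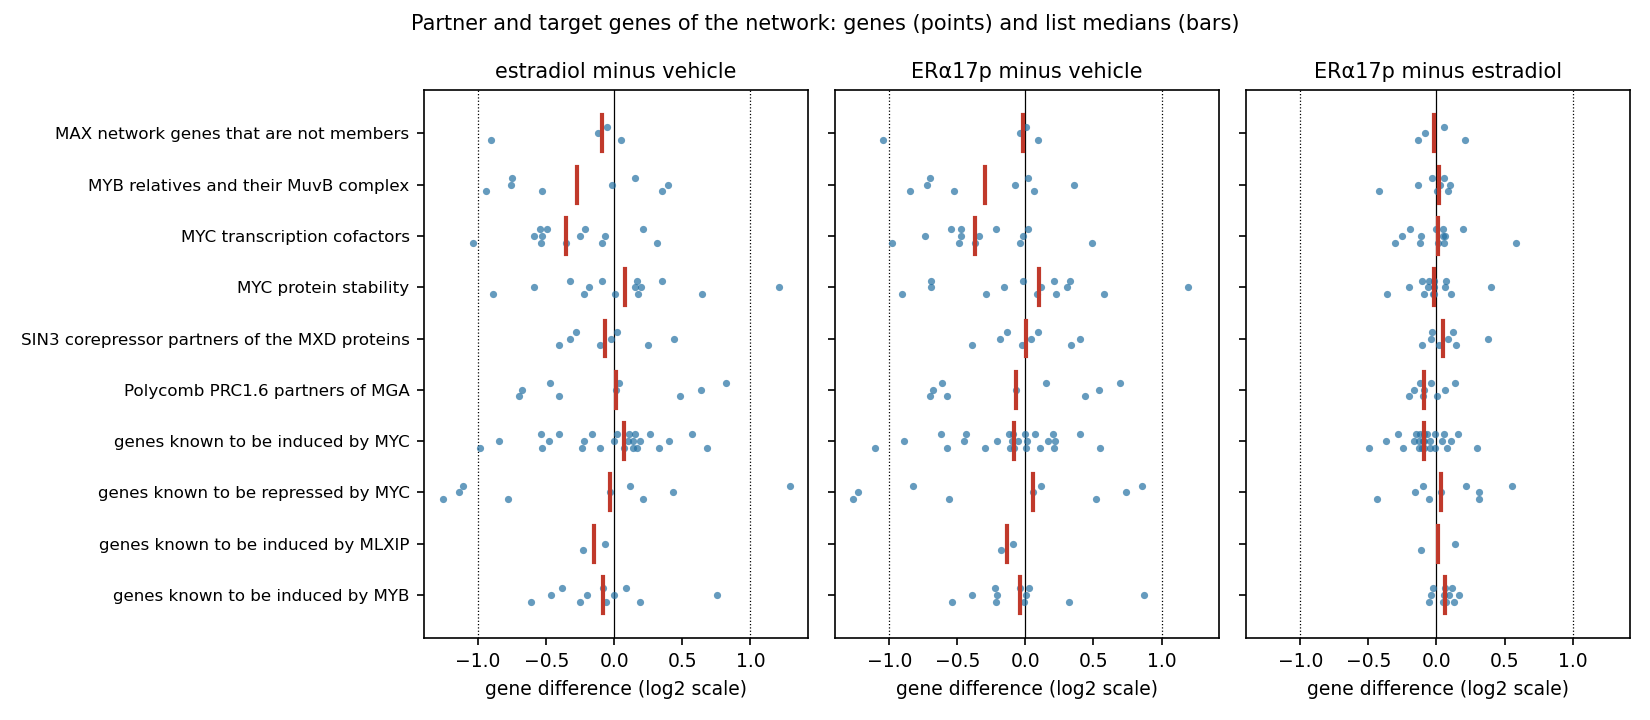
Gene differences on the log2 scale for the 10 lists of partners and known targets; points are genes, red bars list medians, and dotted lines mark 2-fold. In ERα17p minus estradiol every listed gene lies within 2-fold, while against the vehicle MLXIPL, KAT5, CIP2A, SRM, CDKN1A, NDRG1, CEBPA and THBS1 lie beyond it in at least 1 comparison.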

How the data were processed

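RNA of T47D cells was measured on 3 arrays, 1 per group. The authors deposited RMA expression values, per the submitters' processing notes, and these were read as log2 values, since no other base is named. No source used here gives the centring step or its baseline. In 3.44% of probe sets a pair of arrays held equal and opposite values, to within 2e-06. Gene names came from the platform annotation, of which 41091 probe sets held 1 gene, 1801 several and 11721 none, and 41037 matched a current RefSeq gene record. Differences of a gene's probe sets were averaged, with no filter. Named were all members, all genes of lists of up to 4, and the 5 nearest patterns. In longer lists, genes given with values came from the 4 with the largest difference from vehicle in each comparison. Some genes that met this rule are not named. Members, lists and motifs were chosen with earlier results of these data known. With 1 array per group no test was run, and the number of arrays limits the precision. Alternatives were median centring, quantile normalization, medians in place of means over probe sets, leaving out sets ending in _x_at or _s_at, other sizes, and probe sets in place of genes. The gene computations were run on simulated data with known differences, as a check of the code only. The simulated noise was alike on all 3 arrays, unlike the spread of the deposited arrays. Python 3.11.15, numpy 2.4.6, pandas 2.3.3 and matplotlib 3.10.9 were used.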

Additional observations from a re-analysis of the deposited data

How the results depend on the processing

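Of 300 recomputed values, 39 moved by more than the spread set for them. That spread was the SD over a gene's probe sets (for a gene with 1 set, the median such SD), the standard error over genes for a median, and a factor of 1.5 for a count. A change of sign was looked for only in member gene differences past 2-fold, those of MYC and MYB, and 0 changed. Smaller differences were not covered, and MYC for ERα17p minus vehicle went from 0.38 to −0.73 under quantile normalization. Some values could not move, because the mean and the median of 1 or 2 probe sets are equal. Median centring moved none, and it could hardly do so. The medians over all genes that it takes away were only −0.004, 0.001 and 0.006. The cause of the other shifts was not tested, except where fewer probe sets or another threshold made them. No paired analysis was possible because each group had 1 array, and signal over background is unknown.

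Quantile normalization narrows the values of the vehicle array and widens those of the treated arrays. With it, MYC stood at −0.73 for ERα17p minus vehicle and −2.71 for ERα17p minus estradiol. In that setting 1 member, MYB, was at least 2-fold lower with ERα17p than with vehicle. Member probe sets past 2-fold became 1 higher and 1 lower with estradiol, 0 higher with ERα17p, and 1 higher for ERα17p minus estradiol. List medians became −0.22 for MYC cofactors and −0.0075 for genes induced by MYC with estradiol, and −0.15 for Polycomb partners and 0.13 for genes induced by MYB for ERα17p minus estradiol.

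Without sets ending in _x_at or _s_at, MYC and MXD3 had no value and MAX stood at 0.05 for ERα17p minus estradiol. Members past 2-fold became 0 higher with estradiol and 1 lower for ERα17p minus estradiol. Member probe sets became 0 higher with estradiol, 0 higher with ERα17p, and 1 lower for ERα17p minus estradiol. In the order estradiol minus vehicle, ERα17p minus vehicle, ERα17p minus estradiol, medians became −0.33, −0.40 and 0.04 for Polycomb partners and −0.29, −0.22 and 0.0328 for genes induced by MYB. They became −0.0735 for MYC stability and −0.0673 for genes induced by MYC with estradiol, and 0.26 for genes repressed by MYC and −0.11 for MLXIP targets for ERα17p minus estradiol.

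With medians in place of means over probe sets, MYC cofactors stood at −0.50 with estradiol, and MLXIP targets at −0.27 and −0.28 with estradiol and ERα17p. At 1.5-fold, 1 member was lower in each comparison with the vehicle, 5 and 6 member probe sets were lower, and 1 was higher for ERα17p minus estradiol. At 3-fold, 1 member, MYC, was lower for ERα17p minus estradiol. Counted as probe sets, 2 were higher with estradiol, and 1 higher and 1 lower with ERα17p. Shares over all probe sets at 1.5-fold and over all genes at 3-fold were not computed. Nor were shares for the counts under quantile normalization or without sets ending in _x_at or _s_at. Nothing is read from any of these counts.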

Other observations

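The probe sets annotated to both MXD4, a MAX partner of differentiated cells, and the microRNA gene MIR4800 were left out of all gene values. On 212346_s_at the deposited values were 0.63 with vehicle, −0.07 with estradiol and −0.06 with ERα17p. On 212347_x_at they were 0.10, −0.03 and −0.29, and on 210778_s_at 0.06, −0.18 and 0.05. All 3 sets were highest on the vehicle array. Estradiol minus vehicle was −0.70, −0.13 and −0.24 in that order, and ERα17p minus vehicle −0.69, −0.39 and −0.01. Which of the 2 genes gave the signal cannot be told from these sets.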
